A study of Mus musculus with 16 samples.

Results

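Thigh adipose tissue (tAT) was set against inguinal white adipose tissue (iWAT), a subcutaneous depot, by RNA sequencing of 4 libraries each. The 8 libraries are part of a series of 16, whose other libraries come from 2 further depots and were not used in the tests. Both groups came from males of the strain written C57BL66/J in the labels, and every animal had become obese on a high-fat diet, so the thigh fat and its inguinal comparator share genotype, sex and diet. Age, time on the diet and housing temperature are not stated in the labels. The labels number the libraries of each depot 1 to 4 without saying whether each is a separate mouse, so the spread behind each p-value is that of libraries and could be technical. Of 46386 entries in the deposited table, 14078 reached 1 FPKM (fragments per kilobase of transcript, scaled to the mapped fragments of the library) in at least 4 of the 8 libraries and were tested on log2(FPKM + 1), a scale that understates the change of weakly expressed genes. A gene is called when limma's adjusted p over all tested genes lies under 0.05, and every log2 difference is tAT minus iWAT.

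White adipocytes store triglyceride in a large droplet and release hormones such as leptin. Brown and beige adipocytes burn fatty acids in mitochondria whose inner membrane holds UCP1, a protein that lets protons back in without making ATP, so that the energy leaves as heat. Fat beside a limb muscle can be taken with muscle fibres, which are also rich in mitochondria and share several isoforms of oxidative enzymes with brown fat. In bulk RNA, fewer cells of a type and less RNA per cell cannot be told apart.

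**Figure D1:**
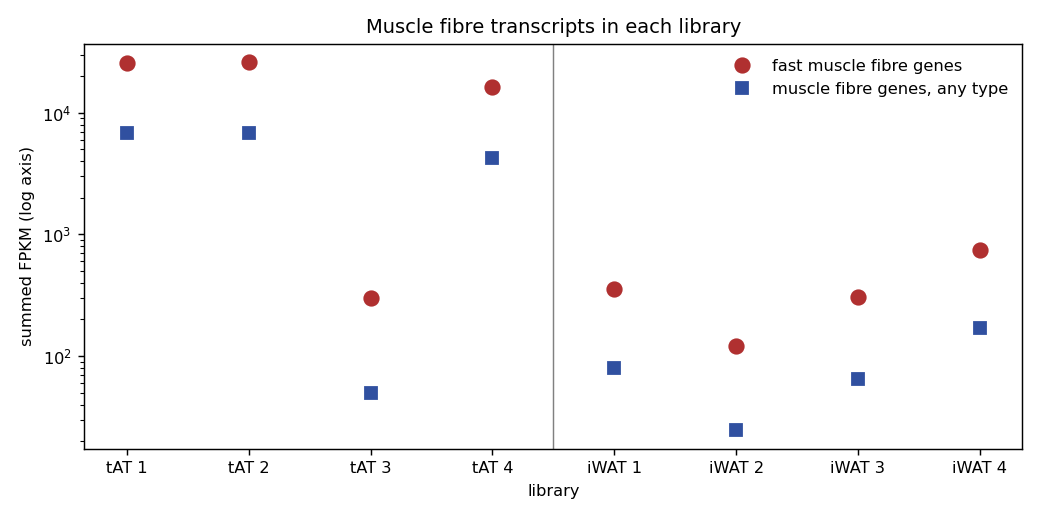
Summed FPKM of genes of fast fibres and of genes of fibres of any type in each library, log axis, thigh left and inguinal right. The points of tAT 3 stand among those of the inguinal libraries, while tAT 1, 2 and 4 stand above all of them.

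Skeletal muscle transcripts were abundant in 3 thigh libraries and scarce in the remaining one. The 45 genes listed for muscle fibres held 3.59%, 3.67%, 0.0415% and 2.17% of the FPKM of tAT 1 to 4, against 0.063%, 0.0345%, 0.0517% and 0.112% in iWAT 1 to 4. The share in tAT 3 lay within the inguinal range and the other thigh shares above it. Myh4, the myosin heavy chain of fast fibres, had 2777, 2862, 7.5 and 1701 FPKM in tAT 1 to 4, against 9.52, 1.33, 13.6 and 17.9 FPKM in iWAT 1 to 4. Ckm, muscle creatine kinase, had 3128, 3218, 15.2 and 2031 FPKM in the thigh libraries, against 33.3, 3.93, 21 and 71.8 FPKM in the inguinal libraries. For both genes tAT 3 stood far below the other thigh libraries, and neither was called (adjusted p = 0.064 for Myh4 and 0.0878 for Ckm). Over all tested genes 8.03% were called higher and 26.4% lower in thigh fat. Of the 31 muscle genes tested, 2 were called higher, Myl1 (myosin light chain of fast fibres) and Stac3 (a protein of the voltage sensor complex), and 1 lower, Tpm3 (a tropomyosin also made outside slow fibres), which was not called after scaling the libraries. Without tAT 3, 28 of the 31 were called higher, against 13.0% of all tested genes, and for tAT 3 alone none was, with 21 inside the inguinal range, 7 below it and 3 above it. The median log2 difference of these 31 genes was 4.23 over the 4 thigh libraries and -0.39 for tAT 3. Results are therefore given for 4 thigh libraries and for tAT 3 alone, by its own FPKM, its log2 difference from the inguinal mean, or its place above, inside or below the range of the 4 inguinal libraries. A pair of values such as a difference ± SE (n = 4 each) "with" a value in tAT 3 gives both.

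Adipocyte markers were abundant in all 8 libraries, as the label adipose tissue says. Adipoq, the adipocyte hormone adiponectin, had 2134, 2057, 2326 and 2053 FPKM in tAT 1 to 4, against 3507, 3699, 3248 and 3832 FPKM in iWAT 1 to 4. Lpl, lipoprotein lipase, which frees fatty acids from circulating triglyceride, had 1310.3, 1448, 1757 and 1586 FPKM in the thigh libraries, against 2337, 2561, 2547 and 2809.9 FPKM in the inguinal libraries. All thigh values of both genes were below all inguinal ones, with a difference of -0.74 ± 0.12 (SE, n = 4 each; limma adjusted p = 0.00215) for Adipoq and -0.75 ± 0.13 (limma adjusted p = 0.00323) for Lpl. Of the 15 adipocyte identity genes, 2 rose, Adrb3 and Slc2a4, 4 fell and 9 were not called. The share of falls was close to the 26.4% of all tested genes, of which 8.03% were called higher. In tAT 3, 7 of the 15 stood above the inguinal range and 5 below it. The list's median was -0.19 over 4 libraries, 0.09 for tAT 3 and -0.04 after scaling the libraries. FPKM of tested and untested genes summed to 896524 to 1074123 in the thigh libraries and 876483 to 942144 in the inguinal libraries. The 10 most abundant genes held 25.8% to 29.7% of the FPKM in the thigh libraries and 19.0% to 22.0% in the inguinal libraries. Read depth is unknown, since the table holds no counts, and 71 tested genes with a mean of at least 10 FPKM are listed at 0 in some library, where the estimate may have failed. Among list members these were Scd1, a fatty acid desaturase, with 3336, 4378, 4922 and 5700.1 FPKM in tAT 1 to 4 against 6160.0, 4592, 7816 and 0 FPKM in iWAT 1 to 4, and Gapdh, of glycolysis, with 0, 1329.7, 600.3 and 1060.6 FPKM in thigh fat against 532, 588, 559.8 and 590.7 FPKM in inguinal fat. Both stayed in their lists and neither was called.

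The library iWAT 3 stood apart for lymphocyte transcripts. It was the highest of the 8 libraries for 17 of the 18 genes listed for lymphocytes. Cd79b, of the B cell receptor, had 0.964, 0.362, 1.14 and 0.612 FPKM in tAT 1 to 4, against 2.29, 1.8, 60.4 and 1.35 FPKM in iWAT 1 to 4, and Ccl21a, a chemokine of lymphatic vessels and lymph nodes, had 1.36, 1.32, 1.91 and 0.551 FPKM in thigh fat, against 0.807, 3.04, 75.7 and 2.18 FPKM in inguinal fat. The summed FPKM of the lymphatic list was 6.38 to 12.3 in thigh fat, against 92.3 in iWAT 3 and 14.9 to 22.2 in the other inguinal libraries. Their part in other differences was not tested, and counts of the immune lists are given with and without iWAT 3. Without it 6.71% of all tested genes were called higher and 24.3% lower.

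The fall side was larger than the rise side: 1130 genes were called higher in thigh fat (8.03% of the genes tested) and 3717 lower (26.4%). The median difference over all tested genes was -0.12 (-0.14 for tAT 3). After scaling each library by median-of-ratios size factors that median was 0.01, and the calls were 1978 higher (14.1%) and 2302 lower (16.4%), so the excess of falls depends on the scale used. A list's median below is read beside -0.12. For tAT 3 alone, 963 of the 1130 rises (85.2%) stood above the highest inguinal library, where 22.8% of all tested genes stood, and 3492 of the 3717 falls (93.9%) stood below the lowest, where 47.9% stood. A call is said to be held by tAT 3 where this is so, and held rises and falls made up 6.84% and 24.8% of the genes tested. All 4 thigh libraries were above all 4 inguinal ones for 7.68% of tested genes and below them for 26.5%. These shares include tAT 3 in both counts, so they describe where it stands and are not a test. With a change of at least 1 on the log2 scale, 181 genes rose and 544 fell. In tAT 3 alone 100 of these rises and 480 of these falls also reached 1.

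**Figure D2:**
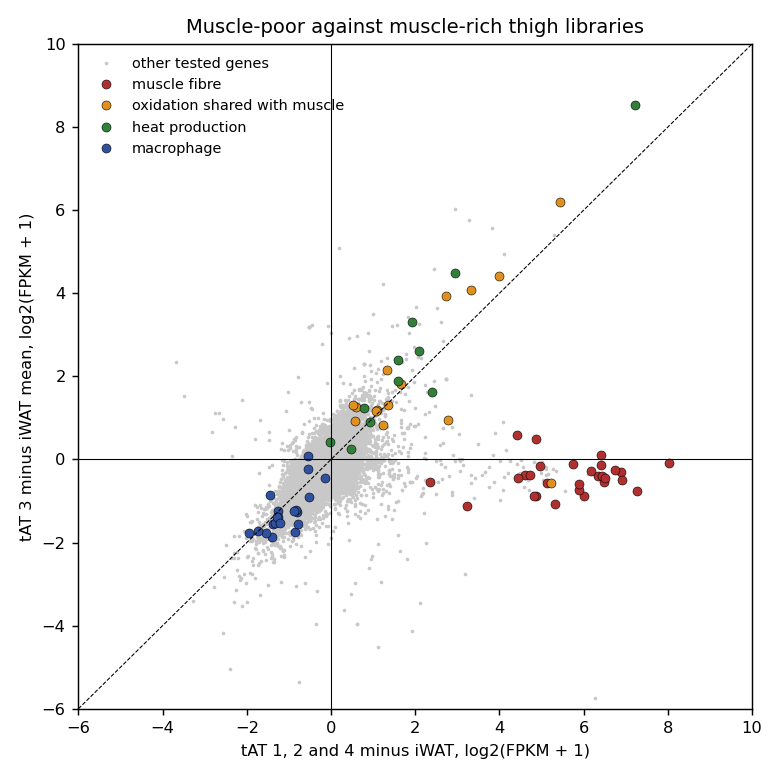
Log2 difference from the inguinal mean for tAT 3 (vertical) against that of the mean of tAT 1, 2 and 4 (horizontal), each point a tested gene, with genes of 4 lists coloured. Most muscle fibre genes lie far right near or a little below 0 on the vertical axis, most heat and shared oxidation genes lie near the diagonal above 0 apart from Ckmt2, which lies with the muscle genes, and most macrophage genes lie in the lower left.

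Genes of heat production were higher in thigh fat, and tAT 3 was the highest library for the leading ones. Of the 11 tested heat genes that muscle expresses weakly, 9 rose, all 9 above the inguinal range in tAT 3 as well. None fell, and 3 further listed genes were under the filter. The median difference was 1.80, and 1.89 for tAT 3. By comparison, 8.03% of all tested genes were called higher, and tAT 3 stood above the inguinal range for 22.8%. Ucp1 had 114, 152, 461 and 354 FPKM in tAT 1 to 4, against 0.304, 0.22, 0.254 and 0.194 FPKM in iWAT 1 to 4. Every thigh library was above every inguinal one, with tAT 3 the highest (log2 difference 7.54 ± 0.42 SE, n = 4 each, limma adjusted p = 0.000115, and 8.54 for tAT 3 alone). Cidea, a lipid droplet protein of brown adipocytes, had 92.7, 86.6, 343 and 203 FPKM in the thigh libraries, against 14.5, 11.6, 20 and 12.7 FPKM in the inguinal libraries (3.33 ± 0.44, limma adjusted p = 0.00164). Slc27a2, a fatty acid transport protein that also activates very long chains, had 2.03, 1.98, 9.93 and 7.18 FPKM in thigh fat, against 0.115, 0.0116, 0.0319 and 0.317 FPKM in inguinal fat. For these 3 genes tAT 3 and tAT 4 stood above tAT 1 and 2. Dio2, which activates thyroid hormone inside brown adipocytes, had 8.93, 4.17, 5.17 and 21.8 FPKM in the thigh libraries, against 0.203, 6.73, 0.294 and 0.323 FPKM in the inguinal libraries. iWAT 2 lay inside the thigh range and the call was missed (2.21 ± 0.74, limma adjusted p = 0.0544, and 0.0499 after scaling). Kcnk3, a potassium channel of brown adipocytes, was the other heat gene not called, with 17.4, 19.4, 26.2 and 20.2 FPKM in tAT 1 to 4 and 18, 22.7, 18 and 18.7 FPKM in iWAT 1 to 4. The transcription factor Prdm16, which drives the brown programme, rose by less, with 5.19, 4.68, 4.41 and 6.21 FPKM in thigh fat against 4.02, 4.29, 3.07 and 2.92 FPKM in inguinal fat (0.42 ± 0.14, limma adjusted p = 0.0405, and 0.25 for tAT 3 alone).

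**Figure D3:**
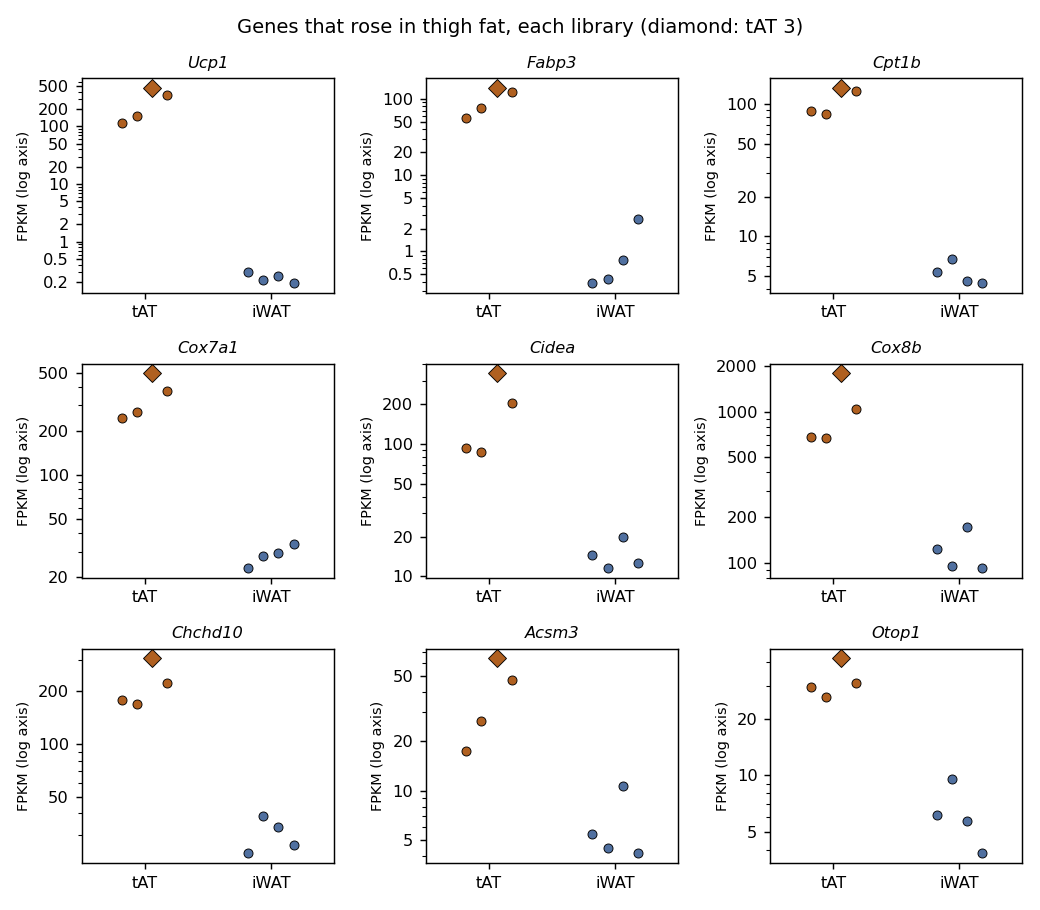
FPKM on a log axis of 9 genes in each library, thigh left and inguinal right in each panel, with tAT 3 drawn as a diamond. All thigh points lie above all inguinal points in each panel, with tAT 3 the highest library. The genes come from the leading rises, whose rule admits only genes without overlap of depots.

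By the rule of the largest rises shared by the 4-library difference and tAT 3, the 12 leading genes were Ucp1, Fabp3, Cpt1b, Cox7a1, Cidea, Cox8b, Chchd10, Acsm3, Slc27a2, Otop1, Pon1 and Ntrk3. Chchd10, a protein between the mitochondrial membranes, had 177, 169.8, 308 and 221 FPKM in tAT 1 to 4, against 23.7, 38.5, 33.5 and 26.3 FPKM in iWAT 1 to 4. Otop1, a proton channel, had 29.5, 26.2, 42 and 31.1 FPKM in thigh fat, against 6.14, 9.49, 5.72 and 3.84 FPKM in inguinal fat. Acsm3, a mitochondrial enzyme that activates medium-chain fatty acids, had 17.5, 26.4, 63.9 and 47.2 FPKM in thigh fat, against 5.44, 4.5, 10.6 and 4.16 FPKM in inguinal fat. The rule admits only genes whose depots do not overlap, so the lack of overlap in these 3 genes restates it. tAT 3 was the highest library for each. Pon1, a paraoxonase, differed by 2.16 ± 0.26 (limma adjusted p = 0.000854) and by 2.71 in tAT 3. Ntrk3, the receptor for neurotrophin-3, differed by 2.16 ± 0.19 (limma adjusted p = 0.000247) and by 2.46 in tAT 3.

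Oxidation genes that muscle and brown fat share were high in tAT 3 as well as in the muscle-rich thigh libraries. Of these 15 genes 14 rose, and tAT 3 was above the inguinal range for all 14, with a median difference of 1.54, and 1.30 for tAT 3. The shares over all tested genes were 8.03% called higher and 22.8% with tAT 3 above the inguinal range. Cpt1b, the muscle isoform of the enzyme that admits fatty acids to mitochondria, had 89.8, 84.2, 133 and 126 FPKM in tAT 1 to 4, against 5.43, 6.71, 4.63 and 4.45 FPKM in iWAT 1 to 4 (4.10 ± 0.18, limma adjusted p = 2.86e-05). Fabp3, the fatty acid binding protein of heart and muscle, had 56.5, 76.9, 139 and 124 FPKM in the thigh libraries, against 0.387, 0.439, 0.763 and 2.63 FPKM in the inguinal libraries (5.63 ± 0.38, limma adjusted p = 0.000154). The split of its reads from the near-identical pseudogene Fabp3-ps1 is uncertain. In both genes tAT 3 was the highest library. The exception was Ckmt2, mitochondrial creatine kinase of striated muscle, with 74.2, 80.1, 0.202 and 47.3 FPKM in thigh fat against 0.627, 0.0989, 0.539 and 2.54 FPKM in inguinal fat. Here tAT 3 lay inside the inguinal range, as it did for most muscle fibre genes. Cytochrome oxidase has subunit isoforms particular to muscle and brown fat. Cox7a1 had 246, 272, 496 and 377 FPKM in tAT 1 to 4, against 23.2, 28.1, 29.6 and 34.1 FPKM in iWAT 1 to 4 (3.51 ± 0.22, limma adjusted p = 9.87e-05). Cox8b had 683, 677, 1802 and 1044 FPKM in the thigh libraries, against 123, 95.2, 173 and 92.6 FPKM in the inguinal libraries (3.03 ± 0.33, limma adjusted p = 0.000591). The third isoform, Cox6a2, had 132, 146, 1.16 and 79.6 FPKM in thigh fat, against 2.7, 1.56, 2.0 and 7.77 FPKM in inguinal fat. For Cox7a1 and Cox8b tAT 3 was the highest library of all, and for Cox6a2 it was the lowest.

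Promoter letters of rises shared by tAT 3 were compared with those of other genes. The windows are RefSeq's, 300 bases from upstream of a start given by RefSeq to just downstream, on GRCm38.p6. Some genes have several windows, which gives them more letters to match, and a gene counts where any of its windows holds a match. Of the 100 genes higher by at least 1 in the 4-library difference and in tAT 3, 55 had a window. AAGGTCA, read on both strands, is the core of the element that oestrogen-related receptors bind. It occurred for 9 of those 55 genes (16.4%), against 20 of 369 genes lower by at least 1 (5.42%), 375 of 9366 tested genes (4.0%) and 1454 of 27025 genes in all (5.38%). The 9 genes were Acacb, BB218582, Clic5, Coq10a, Cpn2, Fam13a, Slc25a34, Slc27a2 and Speg. Slc27a2, Coq10a, Acacb and Fam13a are list members that rose and carry the letters. Of these the first 3 are shown as examples, with Ucp1, which leads the rises and does not carry them. Each is printed 5′ to 3′ on the strand of its gene. Capitals mark AAGGTCA or its reverse complement TGACCTT, which begins at -220 in Slc27a2, -230 in Coq10a and 44 in Acacb, counted from the RefSeq start of that window. The gene start in GENCODE vM21 lies outside these 3 windows: those of Slc27a2 and Acacb lie inside the gene as GENCODE draws it, which begins at 126552407 for Slc27a2 and 114146535 for Acacb, and that of Coq10a lies upstream of the GENCODE start at 128368997. The Ucp1 window holds its GENCODE start.
Slc27a2, chr2:126552774-126553073, plus strand: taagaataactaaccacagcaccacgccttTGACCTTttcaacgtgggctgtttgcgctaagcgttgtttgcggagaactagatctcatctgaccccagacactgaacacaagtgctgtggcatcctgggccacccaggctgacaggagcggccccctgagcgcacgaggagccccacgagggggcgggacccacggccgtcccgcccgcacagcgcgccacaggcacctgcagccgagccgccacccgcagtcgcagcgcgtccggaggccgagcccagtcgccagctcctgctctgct
Coq10a, chr10:128369988-128370287, minus strand: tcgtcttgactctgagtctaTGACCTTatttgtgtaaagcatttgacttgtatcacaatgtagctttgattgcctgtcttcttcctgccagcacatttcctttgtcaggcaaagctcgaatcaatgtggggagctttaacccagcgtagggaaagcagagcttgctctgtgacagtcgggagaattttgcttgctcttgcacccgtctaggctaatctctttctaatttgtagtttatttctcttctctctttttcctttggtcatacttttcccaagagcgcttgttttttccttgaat
Acacb, chr5:114165268-114165567, plus strand: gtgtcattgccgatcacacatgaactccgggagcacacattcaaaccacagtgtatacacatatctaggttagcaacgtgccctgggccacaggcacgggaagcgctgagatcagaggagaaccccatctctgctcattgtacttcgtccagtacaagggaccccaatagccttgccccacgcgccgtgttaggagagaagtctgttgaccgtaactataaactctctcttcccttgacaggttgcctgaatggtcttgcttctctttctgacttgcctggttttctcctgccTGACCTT
Ucp1, chr8:83290098-83290397, plus strand: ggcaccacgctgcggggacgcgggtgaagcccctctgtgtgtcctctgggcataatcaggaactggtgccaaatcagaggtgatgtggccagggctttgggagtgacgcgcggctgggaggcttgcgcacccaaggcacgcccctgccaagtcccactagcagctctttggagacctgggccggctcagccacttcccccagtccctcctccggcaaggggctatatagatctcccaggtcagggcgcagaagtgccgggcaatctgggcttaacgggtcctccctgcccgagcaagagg
A match describes the letters only and shows no binding. Of the other letters searched, CACCTG occurred for 18 of the 55 genes (32.7%) and 1853 of 9366 tested genes (19.8%). The cAMP element TGACGTCA occurred in 1 of 55 (1.82%) and 329 of 9366 (3.51%), an NRF1 site in 1 and 222, a STAT site in 3 and 392, and a MEF2 site in 1 and 17 by one spelling and 1 and 12 by another. TCAAGGTCA, a longer form of the oestrogen-related receptor element that contains AAGGTCA, occurred for none of the 55 and 31 of 9366 tested genes (0.331%). A direct repeat of nuclear receptor letters occurred for none of the 55 and for 4 and 1 tested genes by its spellings. All 10 were chosen after expression values were seen, and no test was made on them.

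Nuclear genes of oxidation in the mitochondrion gave rises and no falls, and tAT 3 stood above the inguinal range for most of them. Among all tested genes 8.03% were called higher and 22.8% had tAT 3 above that range, which is a looser mark than a call. Of 19 genes of the citric acid cycle and pyruvate entry 13 rose and none fell, and tAT 3 was above the inguinal range for all 19 (median 0.51, and 0.92 for tAT 3). Cs, citrate synthase, had 289.8, 273, 393 and 345 FPKM in tAT 1 to 4, against 178, 169, 181 and 176 FPKM in iWAT 1 to 4 (0.87 ± 0.12, limma adjusted p = 0.00156, and 1.15 for tAT 3 alone). Of 17 genes of mitochondrial fatty acid oxidation 9 rose and none fell, and tAT 3 was above the range for all 17 (medians 0.57 and 1.07). Acadvl, the very long chain dehydrogenase, had 198, 184, 438 and 289 FPKM in thigh fat, against 110.2, 106, 128 and 111 FPKM in inguinal fat. Hadhb, a subunit of the trifunctional protein, had 448, 474, 1031 and 676 FPKM in thigh fat, against 281, 322, 306 and 319 FPKM in inguinal fat. For both, all thigh libraries were above all inguinal ones and tAT 3 was the highest. Of the 37 complex I genes 7 rose, none fell and 30 were not called. All 37 were above the inguinal range in tAT 3 alone, and 24 were called higher there against 4.01% of tested genes. The median was 0.23 over 4 libraries, 0.68 for tAT 3 and 0.07 without tAT 3, where 7 were called higher and 4 lower (13.0% and 31.2% of all tested genes). Ndufs1, a core subunit, had 112, 106, 146 and 127 FPKM in thigh fat, against 65.5, 63, 75.9 and 69.1 FPKM in inguinal fat. Of the 25 nuclear genes for complexes II to IV, 8 rose and none fell, with 24 above the range in tAT 3 (medians 0.36 and 0.75). Of 13 coenzyme Q genes 5 rose, all held by tAT 3, with Coq10a, a carrier of coenzyme Q, at 1.31 ± 0.10, with 1.32 in tAT 3, and Adck3, an atypical kinase of its synthesis, at 1.10 ± 0.09, with 1.17 in tAT 3 (limma adjusted p = 0.000169 and 0.000205).

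Few genes of the mitochondrial ribosome were called. Of 77 mitochondrial ribosome genes 3 rose and 11 fell, both below the shares over all tested genes (8.03% and 26.4%). After median-of-ratios scaling 8 were called higher and 4 lower, and the median of -0.08 turned to 0.07, so the direction of the list depends on the scale. In tAT 3 alone 52 were above the inguinal range and 8 below it, and 13 of them had tAT 1, 2 and 4 all below that range. Mrps6 had 76, 95.6, 90.1 and 69.1 FPKM in tAT 1 to 4, against 147, 192, 174 and 186 FPKM in iWAT 1 to 4, with no overlap. Mrps36 had 39.6, 38.8, 71 and 54.9 FPKM in thigh fat, against 29.3, 31, 36.1 and 33.9 FPKM in inguinal fat, again with no overlap but in the other direction. Of 13 genes of mitochondrial biogenesis 4 rose, all held by tAT 3, and none fell. Among them were the coactivator Ppargc1b (0.84 ± 0.13, with 0.71 in tAT 3, limma adjusted p = 0.00184) and the oestrogen-related receptor Esrra (0.51 ± 0.12, with 0.86 in tAT 3, limma adjusted p = 0.014). Of the 13 protein genes of the mitochondrial genome, a group added after values were seen, 11 rose, by 0.80 to 1.23, all 11 above the inguinal range in tAT 3. mt-Co1 is listed at 16057, 16909, 0 and 0 FPKM in tAT 1 to 4, against 10553, 8933, 11978 and 10909 FPKM in iWAT 1 to 4, so its thigh level cannot be given. Reads of these genes may be split with near-identical nuclear copies.

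Fat-making genes rose in part. Of 14 lipogenesis genes 5 rose and none fell, and tAT 3 was above the inguinal range for all 5. By comparison, 8.03% of all tested genes were called higher and 26.4% lower, and tAT 3 was above that range for 22.8%. Acacb, the acetyl-CoA carboxylase at the mitochondrion, had 43.2, 44, 85 and 65.8 FPKM in tAT 1 to 4, against 14.5, 11.1, 17.6 and 12.6 FPKM in iWAT 1 to 4 (1.98 ± 0.23, limma adjusted p = 0.000675). Acaca, its cytosolic counterpart, had 65.3, 104, 75.2 and 114 FPKM in the thigh libraries, against 47.6, 36.8, 46.4 and 40.5 FPKM in the inguinal libraries. Mlxipl, the glucose-sensing factor ChREBP, had 70.2, 60.7, 74.6 and 77 FPKM in thigh fat, against 40.9, 29.3, 29.1 and 31.8 FPKM in inguinal fat. None of these 3 genes overlapped between the depots, and for Acaca tAT 3 lay between tAT 1 and the 2 highest thigh libraries. Fasn, fatty acid synthase, had 482, 610.3, 1184 and 855 FPKM in thigh fat and 438, 491, 622 and 593 FPKM in inguinal fat and was not called (limma adjusted p = 0.191). Of 12 genes of triglyceride synthesis and glycerol use, Gk (glycerol kinase, 0.93 ± 0.21, with 0.91 in tAT 3, limma adjusted p = 0.00938) and Pck1 (glycerol made from pyruvate, 0.73 ± 0.18, with 0.84 in tAT 3, limma adjusted p = 0.0129) rose. Dgat2, the last step of triglyceride synthesis, was the 1 that fell (-0.44 ± 0.13, with -0.27 in tAT 3). It was not called after scaling, and tAT 3 lay inside the inguinal range for it.

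Few storage and uptake genes were called. Of 14 genes of the lipid droplet and lipolysis none rose and 4 fell, and of 12 genes of fatty acid uptake none rose and 4 fell, shares near the 26.4% of all tested genes. tAT 3 held 3 of the 4 droplet falls and all 4 of the uptake falls. Hilpda, a droplet protein that restrains lipolysis, had 12.2, 11, 16.7 and 14.8 FPKM in tAT 1 to 4, against 40, 37.9, 35.4 and 46.2 FPKM in iWAT 1 to 4 (-1.49 ± 0.14, limma adjusted p = 0.000352). Cidec, which makes large droplets, had 1343, 1512, 1435 and 1386 FPKM in thigh fat, against 2397, 2858, 1878 and 2366 FPKM in inguinal fat. Fabp5, a fatty acid binding protein, had 88.1, 94.6, 118 and 97.4 FPKM in thigh fat, against 169, 313, 158 and 207 FPKM in inguinal fat. All inguinal values of these 3 genes were above all thigh values, tAT 3 included. The droplet list's median was -0.15 over 4 libraries, 0.00 after scaling and 0.08 for tAT 3, so the sign of the list's median depends on the scale and on tAT 3. Of 20 peroxisomal genes 2 rose and 4 fell, of which tAT 3 held both rises and 3 of the falls, and after scaling 3 were called higher and 1 lower, so the balance turns with the scale. Of 21 genes of ketone and branched-chain amino acid use 1 rose, the mitochondrial branched-chain carrier Slc25a44 (0.35 ± 0.08, with 0.44 in tAT 3), and 2 fell, among them Oxct1, which starts the use of ketone bodies (-0.61 ± 0.16, with -0.90 in tAT 3), with limma adjusted p of 0.0107 and 0.0173. Neither of the falls was called after scaling, where 4 genes of the list were called higher. Of 17 genes of xenobiotic and steroid metabolism 5 fell, all held by tAT 3, and none rose, a share of falls close to the 26.4% of all tested genes. After scaling 3 were called higher and 5 lower. Among the falls were the glutathione transferase Gsta3, with 17.8, 18.4, 20.8 and 20.3 FPKM in thigh fat against 69.2, 62.5, 92.5 and 99.2 FPKM in inguinal fat, and Hsd11b1, which regenerates glucocorticoid (-0.89 ± 0.11, with -0.73 in tAT 3).

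Glycolysis genes differed more in the muscle-rich thigh libraries than in tAT 3. Of 17 glycolysis genes 6 rose and 1 fell, of which tAT 3 held 5 and 1, with a median of 0.59 over 4 libraries and 0.22 for tAT 3. Calls over all tested genes were 8.03% higher and 26.4% lower. Aldoa, aldolase of muscle and most tissues, had 4046, 4149, 1277 and 2954 FPKM in tAT 1 to 4, against 869, 1131, 974 and 979 FPKM in iWAT 1 to 4. Pkm, pyruvate kinase, had 480.3, 466, 211 and 371 FPKM in thigh fat, against 146, 163, 165 and 149 FPKM in inguinal fat. Both differed by more in 4 libraries (1.52 and 1.22) than in tAT 3 alone (0.38 and 0.44), where they were still above the inguinal range. Pfkm, muscle phosphofructokinase, had 284, 275, 14.6 and 170.0 FPKM in thigh fat, against 12.1, 10.4, 12.5 and 14.7 FPKM in inguinal fat, and tAT 3 lay inside the inguinal range. Slc2a4, the insulin-responsive glucose transporter, had 132, 119.9, 124 and 125 FPKM in thigh fat, against 89.2, 73.8, 92 and 87.5 FPKM in inguinal fat. It was the 1 rise among 16 insulin signalling genes, of which 3 fell, fewer than the 26.4% of all tested genes. After scaling 5 of the list were called higher and 1 lower, so its balance depends on the scale. Slc2a4 was as high in tAT 3 (0.54) as over the 4 libraries (0.55 ± 0.09, limma adjusted p = 0.00281).

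**Figure D4:**
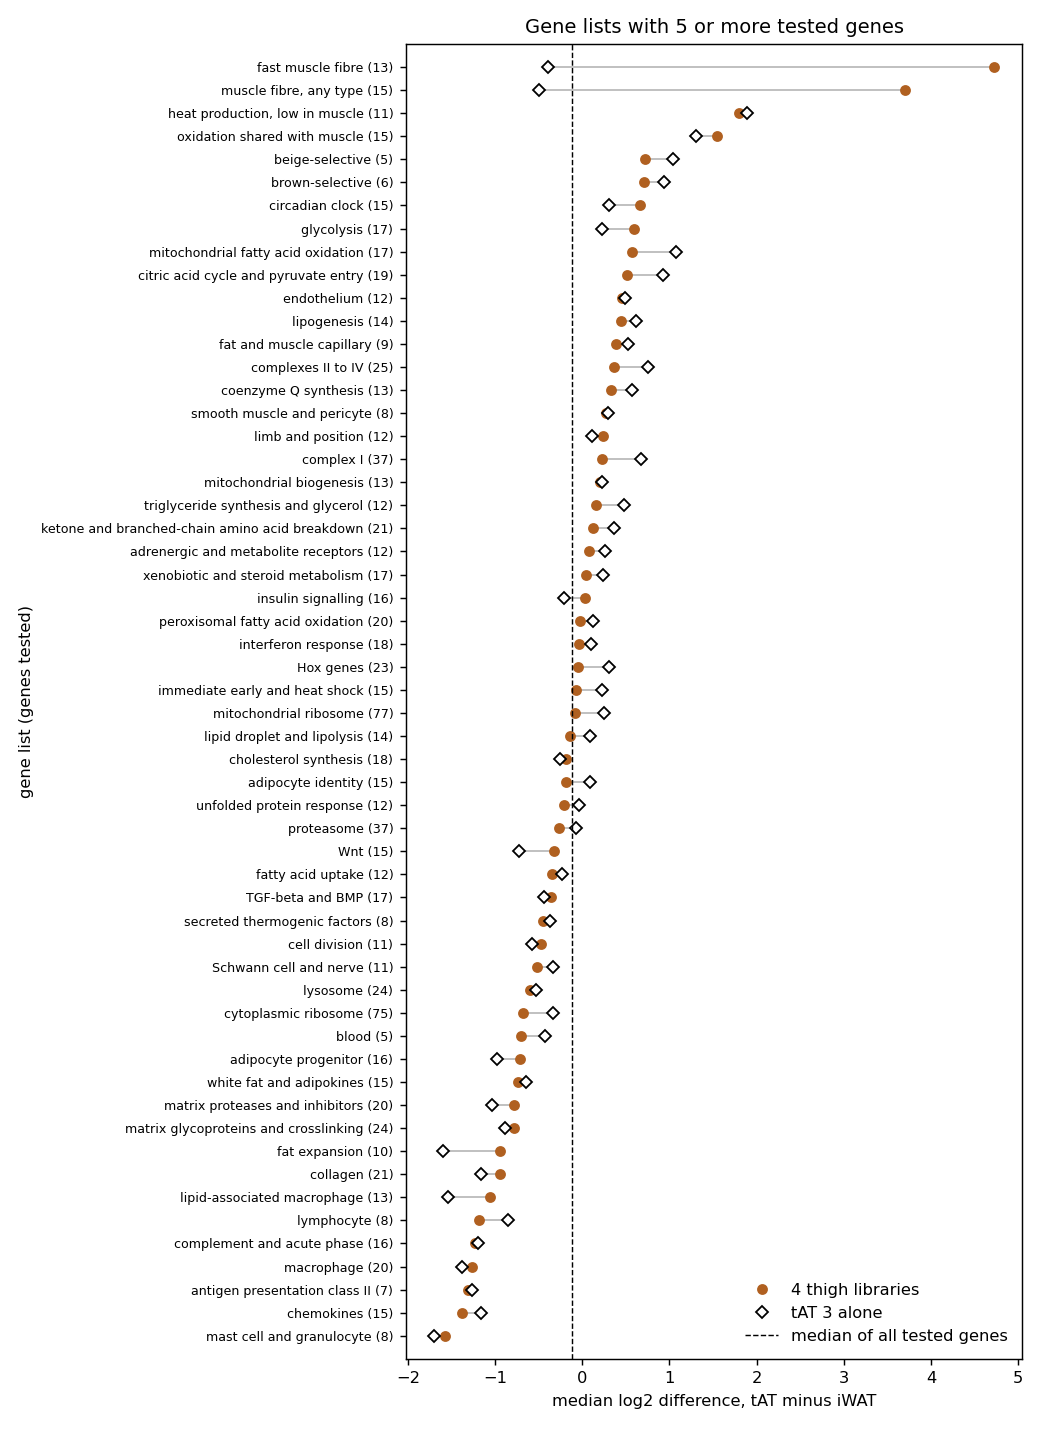
Median log2 difference of each gene list with 5 or more tested genes over the 4 thigh libraries (filled) and for tAT 3 alone (open), with the dashed line at the median of all tested genes. The muscle lists drawn, of fast fibres and of fibres of any type, lie far right when filled and below 0 when open, heat and shared oxidation lists lie right of 1 on both marks, and immune and matrix lists lie left on both, apart from the interferon response, which lies near the dashed line.

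White fat hormones fell. Of 15 genes of white fat and its hormones 11 fell and none rose, and tAT 3 was below the inguinal range for 9 of the 11 (medians -0.74 and -0.65). Of all genes tested 26.4% were called lower, and tAT 3 was below that range for 47.9%. After scaling 10 white fat genes were called lower and none higher. Lep, leptin, had 505, 726, 368 and 492 FPKM in tAT 1 to 4, against 1417, 2178, 979.7 and 1564 FPKM in iWAT 1 to 4 (-1.54 ± 0.27, limma adjusted p = 0.00329). Agt, angiotensinogen, had 3.05, 2.35, 1.46 and 2.63 FPKM in thigh fat, against 16.2, 5.27, 16.4 and 16.4 FPKM in inguinal fat. Npr3, the receptor that clears natriuretic peptides, had 132, 171, 83.5 and 137 FPKM in thigh fat, against 296, 304, 245 and 312 FPKM in inguinal fat. In all 3 genes tAT 3 was the lowest library. Slc7a10, which carries neutral amino acids into white adipocytes, differed by -0.90 ± 0.08 (limma adjusted p = 0.000362), with 142, 144, 145 and 142 FPKM in thigh fat against 261, 276, 247 and 286 FPKM in inguinal fat. Of 10 genes linked to fat expansion 7 fell and 1 rose, all held by tAT 3, and the median was -0.94 over 4 libraries and -1.60 for tAT 3. After scaling 6 of them were called lower and 1 higher. Mest, an imprinted gene that marks expanding fat, had 166, 307, 67.9 and 152 FPKM in thigh fat, against 627, 864, 299.9 and 606 FPKM in inguinal fat. Sfrp5, a secreted Wnt inhibitor of adipocytes, had 95.1, 117, 56.1 and 68.2 FPKM in thigh fat, against 256, 336, 214 and 305 FPKM in inguinal fat. Fam13a was the 1 that rose, with 33.3, 42, 39.1 and 43.7 FPKM in thigh fat against 19.7, 13.5, 18 and 13.5 FPKM in inguinal fat. tAT 3 was the lowest library for Mest and Sfrp5 and lay within the thigh range for Fam13a.

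Brown and beige marker lists were mixed. Calls over all tested genes were 8.03% higher and 26.4% lower, and 6.84% and 24.8% with the call held by tAT 3. Of 6 brown-selective genes tested 4 rose and 2 fell, with tAT 3 outside the inguinal range on the side of the call for all 6. Pdk4, which switches mitochondria away from glucose, had 64, 118, 109 and 106 FPKM in tAT 1 to 4, against 20.1, 30.5, 20.2 and 25.5 FPKM in iWAT 1 to 4, and Lhx8, a homeobox gene, had 1.06, 1.79, 1.07 and 0.596 FPKM in thigh fat against 3.51, 4.62, 3.35 and 4.55 FPKM in inguinal fat. Of 5 beige-selective genes tested 3 rose, P2rx5, Slc36a2 and Car4, and 1 fell, Ear2, all held by tAT 3. P2rx5, an ATP-gated channel, had 6.5, 4.55, 15.2 and 10.4 FPKM in thigh fat, against 2.46, 2.39, 2.74 and 2.82 FPKM in inguinal fat. The remaining beige gene, the T-box factor Tbx1, had 5.29, 6.27, 0 and 3.47 FPKM in thigh fat and 1.58, 0.664, 1.37 and 1.75 FPKM in inguinal fat. It is listed at 0 in tAT 3 and was above all inguinal libraries in the other 3, and it was not called.

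Receptors and secreted factors also differed in both directions. Of 12 tested receptors 4 rose and 3 fell, all held by tAT 3. The share of falls was close to the 26.4% of all tested genes, of which 8.03% were called higher. Without iWAT 3, 2 receptors were called higher and 3 lower. Adrb3, the adipocyte beta-adrenergic receptor that starts lipolysis and heat production, had 139.8, 104, 167 and 123 FPKM in tAT 1 to 4, against 84.6, 39.7, 104 and 69.9 FPKM in iWAT 1 to 4, with tAT 2 at the level of iWAT 3 (0.89 ± 0.27, limma adjusted p = 0.0335). Adrb1, the other main beta receptor of brown fat, differed by 1.07 ± 0.23, with 1.52 in tAT 3, and Npr1, a natriuretic peptide receptor, by 0.50 ± 0.14, with 0.76 in tAT 3 (limma adjusted p = 0.00811 and 0.0241). The thyrotropin receptor Tshr (-0.86 ± 0.11, with -0.96 in tAT 3), the prostaglandin receptor Ptger3 (-0.71 ± 0.15, with -0.93 in tAT 3) and the short-chain fatty acid receptor Ffar2 (-0.66 ± 0.10, with -0.48 in tAT 3) fell. Of 8 secreted factors 1 rose, the brown fat growth factor Nrg4 (0.71 ± 0.16, with 0.91 in tAT 3, limma adjusted p = 0.00997), and 4 fell, all held by tAT 3. Metrnl, a secreted factor of fat and muscle, had 8.79, 8.73, 8.0 and 5.84 FPKM in thigh fat, against 23.5, 31.5, 21.4 and 23.3 FPKM in inguinal fat.

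**Figure D5:**
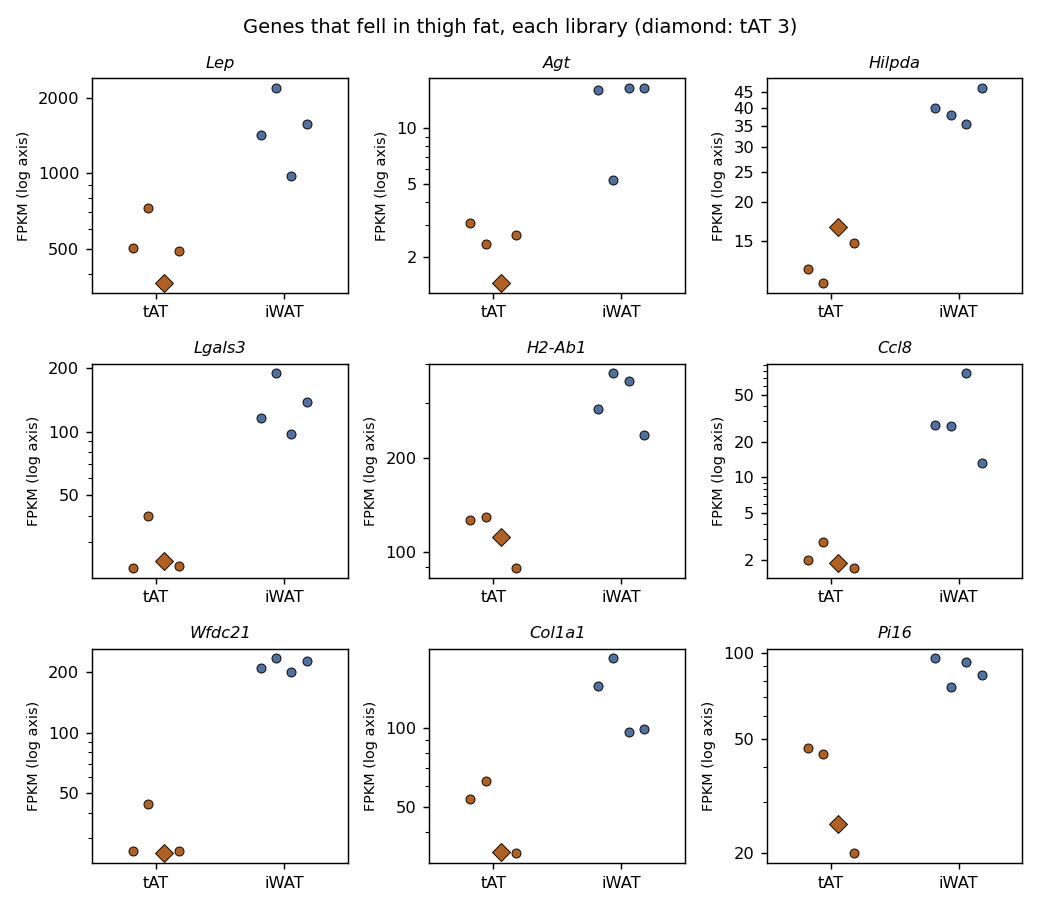
FPKM on a log axis of 9 genes that fell, in each library, thigh left and inguinal right in each panel, with tAT 3 drawn as a diamond. All thigh points lie below all inguinal points in each panel.

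Most genes listed for macrophages, class II antigen presentation, complement and the lysosome fell. Of 20 macrophage genes 17 fell, of 13 lipid-associated macrophage genes 10, of 7 antigen presentation genes of class II all 7, of 16 complement and acute phase genes 14, and of 24 lysosome genes 19, with no rise in these lists. tAT 3 was below the inguinal range for 19 of the 20, 11 of the 13, 7 of the 7, 15 of the 16 and 22 of the 24. Among all tested genes 26.4% were called lower and 47.9% had tAT 3 below that range. The list medians were -1.27, -1.05, -1.31, -1.23 and -0.60 over the 4 libraries. After scaling, 15, 7, 7, 14 and 15 were called lower and 1 lysosome gene higher. Without iWAT 3, 17, 10, 7, 14 and 19 were called lower and none higher. Lgals3, galectin-3 of macrophages, had 22.6, 39.7, 24.5 and 23.1 FPKM in tAT 1 to 4, against 116, 189, 97.4 and 138 FPKM in iWAT 1 to 4 (-2.25 ± 0.23, limma adjusted p = 0.000483). H2-Ab1, which presents antigen to helper T cells, had 127, 129, 112 and 89.2 FPKM in thigh fat, against 288, 374, 353 and 238 FPKM in inguinal fat. Ctsk, a secreted and lysosomal protease, had 11, 14, 8.64 and 9.49 FPKM in thigh fat, against 45.8, 64.9, 39.9 and 41.8 FPKM in inguinal fat. For each of these genes the lowest inguinal value exceeded the highest thigh value. Cd52, a surface glycoprotein of leukocytes, had 19.6, 24.6, 22.3 and 16 FPKM in thigh fat, against 51.1, 80.3, 225 and 41.5 FPKM in inguinal fat, and iWAT 3 stood above the other inguinal libraries.

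Ccl8, a chemokine for monocytes, showed the largest fall held by tAT 3, with 1.99, 2.84, 1.88 and 1.7 FPKM in tAT 1 to 4, against 27.8, 27.1, 76.4 and 13.2 FPKM in iWAT 1 to 4 (-3.32 ± 0.45, limma adjusted p = 0.00171). It was 1 of 6 chemokines that fell among 15 tested, all held by tAT 3, with no rise, and without iWAT 3 8 were called lower. Saa3, an acute phase protein, had 2.99, 5.6, 0.271 and 1.25 FPKM in thigh fat, against 26, 56.9, 8.03 and 19.1 FPKM in inguinal fat. Wfdc21, a small secreted protein of the whey acidic family, had 25.7, 44.4, 25.2 and 25.7 FPKM in thigh fat, against 210.4, 234, 200.4 and 226 FPKM in inguinal fat. These genes were taken by the rule of the largest falls held by tAT 3, which admits only genes whose depots do not overlap. Of 8 mast cell and granulocyte genes 5 fell, all held by tAT 3 and 5 also without iWAT 3, Mcpt4, a mast cell protease, by -2.08 ± 0.12, with -2.34 in tAT 3 (limma adjusted p = 9.52e-05). Of 8 lymphocyte genes tested 2 fell, both held by tAT 3, a share close to the 26.4% of all tested genes. After scaling 1 was called lower, and without iWAT 3, which holds the lymphocyte transcripts given above, 3 were. Ighm, the heavy chain of IgM, had 159.8, 239, 111 and 196 FPKM in thigh fat, against 542, 774, 620.4 and 692 FPKM in inguinal fat. Of 18 interferon response genes 3 fell, 1 rose (Rsad2, 0.64 ± 0.13, with 0.64 in tAT 3) and 14 were not called, with a median of -0.03. Others of the 12 largest falls held by tAT 3 were Mmp3, Rnase2a, Slc5a7, Oxtr, Pla2g5, Cela1, Pcbd1 and Pcolce2. Slc5a7, the choline transporter of cholinergic cells, had 2.5, 3.93, 0.371 and 1.88 FPKM in thigh fat, against 16.8, 20.3, 8.53 and 16.4 FPKM in inguinal fat. Oxtr, the oxytocin receptor, had 9.48, 14.1, 2.89 and 6.24 FPKM in thigh fat, against 41.7, 73, 20.2 and 44.3 FPKM in inguinal fat. tAT 3 was the lowest library for both, and the lack of overlap between the depots was set by the same rule.

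Connective tissue genes were lower too. Of 21 collagen genes 15 fell and 2 rose, of 24 matrix glycoprotein and crosslinking genes 14 fell, of 20 matrix protease and inhibitor genes 12 fell, and of 16 adipocyte progenitor genes 13 fell. tAT 3 held every one of these calls. Among all tested genes 26.4% were called lower. After scaling 13 collagen, 12 matrix glycoprotein, 10 protease and inhibitor and 11 progenitor genes were called lower. Col1a1, a chain of fibrillar collagen, had 53.4, 62.8, 33.6 and 33.3 FPKM in tAT 1 to 4, against 144, 183, 95.9 and 98.4 FPKM in iWAT 1 to 4 (-1.49 ± 0.27, limma adjusted p = 0.00386). Mmp3, stromelysin, had 3.21, 5.74, 2.53 and 1.76 FPKM in thigh fat, against 21, 41.2, 22.5 and 16.7 FPKM in inguinal fat. Pi16, a marker of early progenitors, had 46.5, 44.4, 25.2 and 20 FPKM in thigh fat, against 95.6, 75.8, 93.1 and 83.6 FPKM in inguinal fat. All thigh values of these genes were below all inguinal ones, with tAT 3 and 4 the lower thigh libraries for Col1a1 and Pi16. The collagen rises were Col27a1 (5.44, 4.22, 5.35 and 4.55 FPKM in thigh fat, against 1.36, 0.741, 1.34 and 0.588 FPKM in inguinal fat) and Col8a1 (0.67 ± 0.13, with 0.41 in tAT 3). tAT 3 held every call of the next 3 lists. Of 17 TGF-beta and BMP genes 8 fell and 2 rose, Ltbp2, which binds latent TGF-beta, by 0.81 ± 0.13, with 0.57 in tAT 3, and Bmp6 by 0.80 ± 0.16, with 0.89 in tAT 3. Gdf10, a BMP family ligand, had 4.61, 4.18, 3.21 and 3.89 FPKM in thigh fat, against 17.6, 16, 10.5 and 15 FPKM in inguinal fat. Of 15 Wnt genes 6 fell and 1 rose, Dkk2, a Wnt antagonist (0.62 ± 0.11, with 0.51 in tAT 3). Of 11 cell division genes 7 fell, Cdk1 by -1.05 ± 0.16, with -1.09 in tAT 3. After scaling 5 TGF-beta and BMP genes, 6 Wnt genes and 5 cell division genes were called lower.

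A minority of blood vessel genes rose before scaling, at shares above the 8.03% of all tested genes. Of 12 endothelial genes 3 rose and 1 fell, and of 9 genes of fat and muscle capillaries 3 rose, while after scaling 8 and 4 were called higher and none lower. tAT 3 held 2 of the 3 endothelial rises and all 3 capillary ones. The endothelial list summed to 255 FPKM in iWAT 3, the lowest of the 8 libraries. Without iWAT 3, 2 endothelial genes were called higher and 1 lower, and 2 capillary genes higher and 1 lower. Kdr, the main receptor for VEGF, had 24.8, 21.1, 19.9 and 22.2 FPKM in tAT 1 to 4, against 13.3, 11.9, 5.62 and 9.61 FPKM in iWAT 1 to 4 (1.10 ± 0.22, limma adjusted p = 0.00543). Aqp1, a water channel of capillaries, differed by 0.69 ± 0.20, with 0.69 in tAT 3, and Vwf, the adhesive protein of larger vessels, by -0.42 ± 0.14, with -0.35 in tAT 3 (limma adjusted p = 0.0293 and 0.0428). Vwf was not called after scaling, and tAT 3 lay inside the inguinal range for it. Of 8 smooth muscle and pericyte genes 3 were called higher and 2 lower without iWAT 3. With it 4 rose, 3 of them held by tAT 3, and 1 fell and was held. Among them were the pericyte proteoglycan Cspg4, with 17, 15.7, 18.8 and 18 FPKM in thigh fat against 10.2, 8.85, 9.69 and 7.6 FPKM in inguinal fat, and Acta2, smooth muscle actin, at -0.70 ± 0.19, with -0.83 in tAT 3, a fall not called after scaling. Of 4 lymphatic genes 2 fell, Lyve1 (-1.30 ± 0.29, with -1.73 in tAT 3) and Pdpn (-0.92 ± 0.16, with -1.11 in tAT 3), and 1 rose, Flt4 (0.43 ± 0.13, with 0.29 in tAT 3), which was not called without iWAT 3. Lyve1 and Pdpn are made by some macrophages and fibroblasts as well. For the falls in these lists, the shares over all tested genes were 26.4% called lower and 24.8% both called lower and held by tAT 3. Of 11 Schwann cell and nerve genes 6 were called lower and 2 higher after scaling. Before scaling 6 fell and 1 rose. tAT 3 held all calls of the lymphatic and nerve lists. S100b, which brown adipocytes make as well as glia, was the rise, with 8.29, 12.2, 29.1 and 17.8 FPKM in thigh fat against 5.11, 6.79, 6.07 and 5.72 FPKM in inguinal fat, tAT 3 being the highest library.

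Genes that keep a record of position along the body and limb differed in both directions. Of 23 Hox genes tested 6 rose, all held by tAT 3, and 4 fell, 3 of them held. After scaling 6 Hox genes were called higher and 2 lower. Hoxa3 had 3.26, 2.73, 3.27 and 4.35 FPKM in tAT 1 to 4, against 1.92, 1.48, 1.57 and 1.33 FPKM in iWAT 1 to 4 (0.77 ± 0.13, limma adjusted p = 0.00304). Hoxb5 had 1.71, 1.15, 1.54 and 0.971 FPKM in thigh fat, against 3.11, 2.78, 3.39 and 3.08 FPKM in inguinal fat. Hoxc4 differed by 0.66 ± 0.13, with 0.85 in tAT 3, and the more abundant Hoxc8 by -0.52 ± 0.11, with -0.34 in tAT 3 (limma adjusted p = 0.0058 and 0.00705). The last 2 stand in the same gene cluster and differed in opposite directions. Of 12 limb and position genes 5 rose, 4 of them held by tAT 3, and 3 fell, all held. Among all tested genes 8.03% were called higher and 26.4% lower. The share of falls was below that in the Hox list and close to it in the limb list. Shox2, a homeobox gene of the limb, had 16.3, 15.5, 15.7 and 18 FPKM in thigh fat, against 9.08, 10.4, 8.3 and 9.56 FPKM in inguinal fat. Irx2, an Iroquois homeobox gene, was listed at 0, 0, 0.0178 and 0 FPKM in tAT 1 to 4, against 2.12, 1.46, 2.13 and 2.1 FPKM in iWAT 1 to 4. Its transcript was at or near 0 in every thigh library and between 1 and 3 FPKM in every inguinal one. Tbx15, a T-box factor of some fat depots and of fast muscle, had 21, 20.5, 5.92 and 16.3 FPKM in thigh fat, against 5.58, 5.3, 7.15 and 6.03 FPKM in inguinal fat. It was called (1.15 ± 0.34, limma adjusted p = 0.0316), but tAT 3 lay inside the inguinal range (-0.01), as it did for most muscle fibre genes. Pitx1 and Tbx4, factors of the hind limb, were under the filter, with 0.599, 0.634, 0.842 and 0.63 FPKM of Pitx1 in thigh fat against 0.149, 0.0281, 0.0934 and 0.212 FPKM in inguinal fat, and at most 0.244 FPKM of Tbx4 in any library.

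Clock genes rose more often than they fell. Of 15 clock genes 9 rose and 2 fell, with 7 of the 9 rises and both falls held by tAT 3. The shares over all tested genes were 8.03% higher and 26.4% lower, and 6.84% and 24.8% for held calls. After scaling 11 clock genes were called higher and 1 lower. Per3 had 30.5, 23.3, 25.1 and 30.7 FPKM in tAT 1 to 4, against 15, 10.6, 12.9 and 14.5 FPKM in iWAT 1 to 4 (1.00 ± 0.13, limma adjusted p = 0.00115). Ciart, a repressor of the clock's activators, had 7.6, 6.44, 5.3 and 8.9 FPKM in thigh fat, against 2.57, 2.13, 2.14 and 4.09 FPKM in inguinal fat. The activator Arntl had 1.36, 1.3, 0.939 and 0.752 FPKM in thigh fat, against 2.14, 2.46, 2.49 and 1.71 FPKM in inguinal fat, and its partner Clock differed by -0.53 ± 0.17, with -0.95 in tAT 3, and was not called after scaling. The hours of collection are not stated in the labels. Per2 rose over 4 libraries (0.98 ± 0.32), with tAT 3 inside the inguinal range (0.13).

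Nr4a1, an orphan nuclear receptor that many stimuli induce quickly, had 17.8, 20.1, 9.74 and 11.2 FPKM in tAT 1 to 4, against 2.45, 1.93, 2.95 and 2.59 FPKM in iWAT 1 to 4 (2.12 ± 0.22, limma adjusted p = 0.000472). It was the 1 rise among 15 immediate early and heat shock genes, while Atf3 and Dnajb1 fell and 12 were not called (median -0.07). After scaling neither of these falls was called. Of 12 genes of the unfolded protein response 5 fell and 1 rose, of 18 genes of cholesterol synthesis 3 fell, and of 37 proteasome genes 12 fell, with no rise in the last 2 lists. Over all tested genes the share of falls was 26.4%. tAT 3 held 4, 3 and 10 of these falls, and after scaling 1, 3 and 3 were called lower. Sdf2l1, a chaperone cofactor of the endoplasmic reticulum, had 3.88, 4.27, 3.69 and 4.04 FPKM in thigh fat, against 9.25, 11, 8.04 and 9.68 FPKM in inguinal fat. Of 75 cytoplasmic ribosome genes 70 fell and none rose, 65 of the falls with tAT 3 below the inguinal range. Rps12, of the small subunit, had 763, 670.0, 973 and 722 FPKM in thigh fat, against 1372, 1352, 1907 and 1425 FPKM in inguinal fat. The ribosome median was -0.68, -0.34 for tAT 3 and -0.53 after scaling, where 42 were called lower.

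Rises that tAT 3 did not share were led by Pfkm, Adssl1, Tuba4a, Cacnb1, Phka1 and Amd2. Adssl1, adenylosuccinate synthase of muscle, had 97.5, 95.6, 5.22 and 58.2 FPKM in tAT 1 to 4, against 3.31, 6.2, 4.12 and 5.76 FPKM in iWAT 1 to 4. Cacnb1, a subunit of the muscle calcium channel, had 20, 18.4, 1.02 and 11.9 FPKM in thigh fat, against 1.34, 0.795, 0.965 and 0.932 FPKM in inguinal fat. Phka1, a subunit of muscle phosphorylase kinase, had 34.1, 35.2, 2.86 and 24.2 FPKM in thigh fat, against 2.9, 2.55, 2.87 and 3.05 FPKM in inguinal fat. For all 3, tAT 1, 2 and 4 were above every inguinal library and tAT 3 stood among them. In all, 479 genes (3.4%) had tAT 3 below every inguinal library and tAT 1, 2 and 4 above, and 305 (2.17%) had the reverse. Casq1, the calcium store of the muscle fibre, had 311, 342, 2.41 and 219 FPKM in thigh fat, against 6.77, 4.27, 5.0 and 10.1 FPKM in inguinal fat. Eef1a2, the translation factor isoform of muscle and neurons, had 109, 108, 0.16 and 66.3 FPKM in thigh fat, against 0.931, 0.303, 0.842 and 2.31 FPKM in inguinal fat. Neither was called over 4 against 4, with adjusted p of 0.11 and 0.091 from limma.

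Markers of skin, gland, mesothelium, tendon and satellite cells were mostly under the filter, while those of blood were not. Of 13 skin and gland genes 2 passed the filter and neither was called. No mesothelium gene passed, of 15 tendon, cartilage and bone genes 3 did and 1 of them, Fmod, a tendon proteoglycan, fell (-0.82 ± 0.15, with -0.68 in tAT 3). Of 7 satellite cell and myoblast genes 1 passed, Heyl, which vessel wall cells make as well (0.53 ± 0.16, with 0.62 in tAT 3, limma adjusted p = 0.0293). Of 5 blood genes 4 fell, all held by tAT 3 and 2 called after scaling, with Hbb-bs, a beta globin, at 628, 362, 603 and 412 FPKM in thigh fat against 959, 808, 929 and 847 FPKM in inguinal fat. By comparison, 26.4% of all tested genes were called lower. Near-identical globin copies may share reads. The part of blood, immune cells and vessel content in the other differences was not tested.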

How the data were processed

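The values are FPKM per gene that the authors deposited as a table of 16 columns, matched to samples by title. The submitters' processing notes name TopHat2 2.0.9, Cufflinks 2.1.1 and the build mm10, and whether the counting used strand is not stated there. From the deposited FPKM the 8 thigh and inguinal columns were taken, genes reaching 1 FPKM in 4 or more of them were kept, and log2(FPKM + 1) was fitted with limma 3.58.1 (R 4.3.3; a linear fit with robust, trended empirical Bayes moderation), with Benjamini-Hochberg adjustment over 14078 genes and calls at an adjusted p under 0.05. FPKM carry no read counts, so depth is unknown and no counting interval is given. The fit was tested on simulated data. tAT 3 alone was compared with the inguinal range and, as an alternative, fitted with the spread of the inguinal libraries. The members and the 63 gene lists were chosen with earlier results of these data known. Of the listed genes, 2 were not matched and 6 entries were matched by an older symbol.

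Genes named in the text are the 12 largest rises and 12 largest falls shared by the 4-library difference and tAT 3, among calls with no overlap of depots, the mean of the higher depot at 5 FPKM or more, no library at 0 and a plain gene symbol. Further names are the 6 largest rises with tAT 3 inside the inguinal range, up to 4 genes with tAT 3 on the opposite side to the other thigh libraries, up to 3 members a direction in each list, and genes fixed by name, of which some are not reported here. Ccl21a, Cd79b, Ckm, Ckmt2, Fasn, Gapdh, Kcnk3, Myh4, Scd1, mt-Co1, the promoter matches outside the lists and the genes of the last paragraph were chosen after their values were seen. Alternatives were another pseudocount (0.1), no filter and a filter of 5 FPKM, median-of-ratios and quantile scaling, a fit of all 16 libraries, the replicate number as a block, and each library left out.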

Additional observations from a re-analysis of the deposited data

Results flagged for a closer look

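Within each depot of 4 libraries, 308 groups of values of the genes named were looked at for a library far from the other 3 (gap over range, on log2(FPKM + 1), above Dixon's critical value for 4 values), and 26 were marked, 18 in thigh fat and 8 in inguinal fat. Chance marks about 1 group in 20, but many of these genes were named because tAT 3 stood apart from the other thigh libraries or after their values were seen, so their marks restate that choice and are not set against chance. In 12 of the 18, tAT 3 was low: Amd2 (0.894), Casq1 (0.904), Ckm (0.913), Ckmt2 (0.877), Clic5 (0.85), Cox6a2 (0.858), Eef1a2 (0.891), Myh4 (0.911), Myl1 (0.847), Phka1 (0.838), Stac3 (0.851) and Tuba8 (0.865). tAT 3 was high for Npr1 (0.962) and Pitx1 (0.845), and for Irx2 (1.0), where the other 3 thigh libraries are listed at 0. tAT 2 was high for Lgals3 (0.857) and Wfdc21 (0.965), and tAT 1 is listed at 0 for Gapdh (0.89). In inguinal fat iWAT 2 was low for Agt (0.984) and Irx2 (0.973) and high for Dio2 (0.949), iWAT 1 was high for Heyl (0.849), iWAT 3 was high for Cd79b (0.897), Rps12 (0.846) and Ybx2 (0.868), and iWAT 4 is listed at 0 for Scd1 (0.941).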

How the results depend on the processing

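Against 1130 genes called higher and 3717 lower, of which tAT 3 held 963 and 3492, median-of-ratios scaling gave 1978 and 2302, held 1763 and 2159. Quantile normalization gave 1915 higher, of which 1724 were held. These changes of scale move every gene by a common or rank-based amount. With tAT 3 as the only thigh library, 564 were called higher and 1390 lower, from 5 libraries. Leaving out each library in turn gave 635 to 1825 higher and 2533 to 4391 lower, held 622 to 955 and 2523 to 3384. Fewer genes were called higher on leaving out tAT 1 (702), tAT 4 (677), iWAT 2 (734) or iWAT 4 (635), and more, 1825, on leaving out tAT 3, whose muscle level stands apart from the other thigh libraries. Other alternatives moved these 4 counts by less than 1.5 times. Among 152 genes named and tested, 137 were called, and leaving out a library kept 111 to 133 of the 137, scaling 129, quantile normalization 130, no filter 117, tAT 3 as the only thigh library 85 and a pseudocount of 0.1 all 137. Signs turned for tAT 3 alone, with Casq1 at -1.08, Tbx1 -1.20, Eef1a2 -0.77, Ckmt2 -0.56, Tbx15 -0.013, Ckm -0.49, Cox6a2 -0.88, Myh4 -0.094 and Amd2 -0.028, and for Kcnk3 without tAT 3, at -0.019, the lowest of its values with a library left out, which reached 0.17. The 2 list genes with a library listed at 0 also turned: Scd1 ranged from -0.43 without iWAT 4, where it is listed at 0, to 3.88, and Gapdh from -2.72 to 0.74 without tAT 1, where it is listed at 0, with 0.082 for tAT 3 alone. With the replicate block 1496 genes were called higher and 4292 lower, and 125 of the 137 named calls remained. Same-numbered libraries did not deviate together throughout (correlations -0.004, 0.175, 0.254 and 0.096 for numbers 1 to 4), so the numbers are not read as pairs, and not every library correlated best with its own number. Without iWAT 3, which is rich in lymphocyte transcripts, no muscle fibre gene was called higher (2 with it), and the rises were 2 rather than 4 for mitochondrial biogenesis, none rather than 2 for peroxisomal genes, 2 rather than 4 for receptors and 3 rather than 5 for limb genes. The falls were 2 rather than 4 for blood genes and 6 rather than 11 for the mitochondrial ribosome, and Heyl was not called. Depth is unknown, and 4 libraries a depot limit the precision.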

Other observations

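Of the 100 genes higher by at least 1 over the 4 thigh libraries and in tAT 3 alone, 68 stood in none of the gene lists, and 36 of these have a symbol that is not a clone, numbered or mitochondrial name. The following were chosen after their values were seen. Gpd2, the mitochondrial enzyme of the glycerol phosphate shuttle, had 24.2, 33.4, 28.9 and 30.8 FPKM in tAT 1 to 4, against 9.92, 7.31, 9.11 and 8.47 FPKM in iWAT 1 to 4. Ybx2, an RNA binding protein made in germ cells and brown fat, had 13.6, 11, 13.5 and 11.4 FPKM in thigh fat, against 3.94, 3.97, 5.04 and 4.08 FPKM in inguinal fat. Clstn3, a calsyntenin, had 52.3, 41.4, 83.1 and 52.9 FPKM in thigh fat, against 23.9, 28.2, 22.9 and 27.1 FPKM in inguinal fat. In these 3 genes the muscle-poor library stood inside or above the range of the other thigh libraries. Parm1, a mucin-like protein, differed by 1.43 ± 0.10 (SE, n = 4 each, limma adjusted p = 0.00013), with 9.3, 10.5, 9.86 and 10.8 FPKM in thigh fat against 3.12, 2.93, 3.78 and 2.72 FPKM in inguinal fat. Tuba8, an alpha tubulin, had 16.4, 17, 3.91 and 14.1 FPKM in thigh fat, against 0.619, 0.384, 0.926 and 0.842 FPKM in inguinal fat, so tAT 3 was below the other thigh libraries and above every inguinal one. Speg, a kinase of striated muscle, had 22.7, 17.9, 7.61 and 14.2 FPKM in thigh fat, against 3.41, 3.28, 2.77 and 2.61 FPKM in inguinal fat, with the same order.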
